A study of Rattus norvegicus with 4 samples.

Results

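The epidermal growth factor (EGF) and neuregulin ligand genes and the genes of their ERBB receptors were followed in rat Schwann cells exposed to interleukin-22 (IL-22). The set held 10 genes chosen by name, 6 ligands (Hbegf, Areg, Ereg, Tgfa, Btc and Nrg1) and 4 receptors (Egfr, Erbb2, Erbb3 and Erbb4), out of 17778 rows of the deposited gene table. Each had exactly 1 row. The choice was made with earlier results of these data known. The cells were RSC96, an established line of rat Schwann cells at generation 4, kept without serum overnight before treatment. The IL-22 group received 100 ng/ml recombinant rat IL-22 for 48 h, and the control group received only the 0.1% bovine serum albumin in which the cytokine is dissolved, with no time stated. Poly(A) RNA of 2 libraries per group was sequenced. The labels do not say whether these came from separate cultures, so the p-values measure only the spread between libraries, which may be technical.

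ERBB receptors are receptor tyrosine kinases that signal as pairs and feed the RAS-ERK and PI3K-AKT pathways. EGF-family ligands are made as membrane-bound precursors and are released by ADAM proteases. Areg and Tgfa encode ligands of EGFR, whereas the products of Hbegf, Ereg and Btc bind both EGFR and ERBB4. Neuregulin-1, the product of Nrg1, binds ERBB3 and ERBB4. ERBB2 has no known soluble ligand of its own and acts as the partner of the others, and ERBB3 has little kinase activity and depends on its partner. In peripheral nerve, neuregulin-1 on axons acts through the ERBB2 and ERBB3 pair of Schwann cells and governs their survival, growth and myelination.

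Values are FPKM, that is fragments scaled to transcript length and to library size, a scale on which levels of different genes can be set side by side. How library size was scaled is not given. The 4 libraries had similar depth, at most 1.28 times that of control library 1, the shallowest, as read from the spacing of low values, and absolute depth is unknown. Of 14 Schwann cell marker genes with a row, 9 stayed under 1 FPKM in every library, among them Sox10, S100b and Ngfr, and 3 of the 14 (Mbp, Gap43 and Cdh19) were listed at 0 throughout. The summed FPKM of the Schwann markers ran from 48.8 to 51.5 in the controls and from 89.4 to 96.3 with IL-22, most of it from Pmp22 and Ncam1. The 5 that were tested gave 4 higher with IL-22 (Pmp22, Egr2, Ncam1 and Dhh) and 1 lower (Gfap); Egr2 reached the minimum for testing only through the IL-22 libraries and Gfap only through the controls. Fibroblast markers summed to between 406 and 427 FPKM over all 4 libraries, mostly Col1a2 and Thy1, while 2 of those 8 genes, Dcn and Lum, were listed at 0. Of 5 fibroblast markers tested, 3 were higher (Fbln1, Pdgfra and Thy1) and 2 lower (Col1a1 and Col1a2). These marker counts stand beside 27.6% of all tested rows called higher and 30.8% called lower, by the limma test given below. Macrophage and leukocyte markers summed to at most 6.27 FPKM, endothelial markers to at most 1.90 FPKM and epithelial markers to at most 3.62 FPKM. Of these markers, Aif1 and Epcam were listed at 0 in every library, while Cd14, Cd68, Tek and Krt8 passed 1 FPKM in at least 1. Cd14 ran from 2.16 to 4.61 FPKM and Krt8 from 2.44 to 3.57 FPKM. The part of these cell types in the results below was not tested.

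The 5 tested ligand genes were higher after IL-22. Of the 2 tested receptor genes, Erbb3 was higher, and Erbb2, with the highest listed level, did not pass the test. Of the 10 genes, 7 reached the minimum for testing, a mean of 1 FPKM over the 4 libraries. By limma on log2(FPKM + 1), with Benjamini-Hochberg adjusted p under 0.05 over all 9485 rows tested, 6 of these 7 were higher with IL-22, where 27.6% of all tested rows were called higher. By limma 0 of the 7 were lower at that adjusted threshold, against 30.8% of all tested rows. At an unadjusted limma p under 0.05 there were also 0 lower, with no share of all rows to set beside it. The 6 were the ligand genes Hbegf, Tgfa, Areg, Ereg and Nrg1 and the receptor gene Erbb3. Erbb3 reached the minimum only through its IL-22 libraries, so its presence among the tested genes is itself tied to its direction. With 1 library left out at a time, 4 or 5 genes of the set were called higher. The remaining 3 genes, Btc, Egfr and Erbb4, were too low to be tested. The median difference of the 7 tested genes was 0.71 on the log2(FPKM + 1) scale, beside -0.022 for all tested rows. Because the set was chosen with earlier results of these data known, its counts and median only describe these genes. In bulk RNA, more expressing cells and more RNA per cell cannot be told apart.

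**Figure D1:**
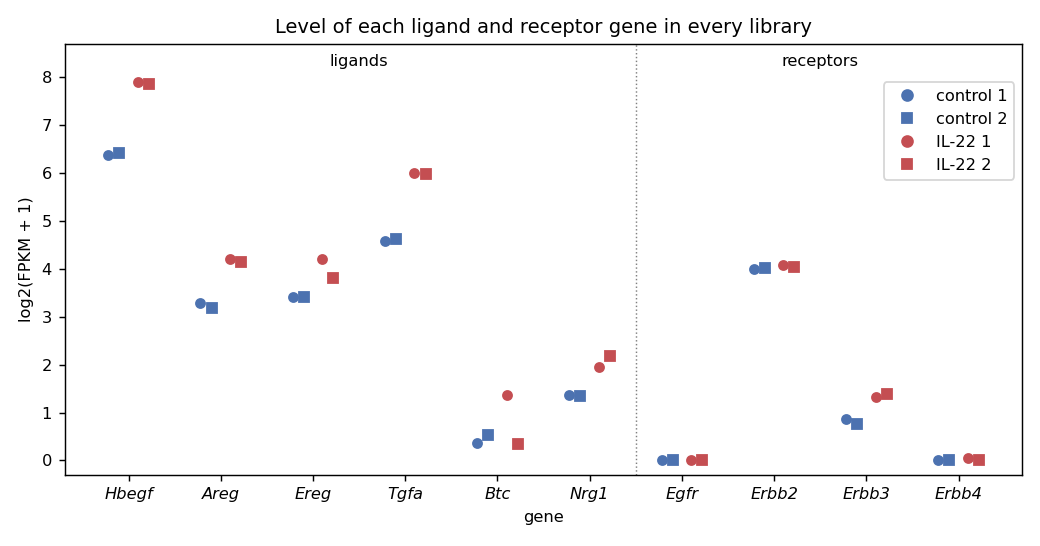
Level of the 6 ligand genes and 4 receptor genes in each library, as log2(FPKM + 1) on the vertical axis, with control libraries in blue and IL-22 libraries in red. Hbegf and Tgfa stand well above their controls, the 4 Erbb2 points lie between 15.1 and 15.9 FPKM, and Egfr is at 0 in every library.

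Upstream sequences are printed for 3 examples, Areg and Tgfa, which rose, and Erbb2, which did not pass the test. The promoters of Areg and Tgfa both held motif matches other than a GC box. They are the 250 bases before the annotated start from RefSeq, 5′ to 3′ on the gene's strand, build GRCr8. This is not the rn5 build named for the expression table, and the sequences were matched by symbol. Areg lies at chr14:17265642-17265891 on the minus strand, Tgfa at chr4:120175469-120175718 on the plus strand and Erbb2 at chr10:83907351-83907600 on the plus strand. Capitals mark matches to the motifs named in the next paragraph.
Areg: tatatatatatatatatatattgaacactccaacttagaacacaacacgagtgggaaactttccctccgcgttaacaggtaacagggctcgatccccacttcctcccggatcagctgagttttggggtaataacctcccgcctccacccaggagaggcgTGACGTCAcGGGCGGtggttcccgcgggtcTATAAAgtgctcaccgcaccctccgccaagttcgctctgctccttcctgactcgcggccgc
Tgfa: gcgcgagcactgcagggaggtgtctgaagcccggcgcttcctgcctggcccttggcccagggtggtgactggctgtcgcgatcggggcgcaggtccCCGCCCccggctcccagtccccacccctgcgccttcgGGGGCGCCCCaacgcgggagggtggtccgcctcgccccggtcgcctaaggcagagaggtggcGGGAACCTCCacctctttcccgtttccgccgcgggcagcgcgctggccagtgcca
Erbb2: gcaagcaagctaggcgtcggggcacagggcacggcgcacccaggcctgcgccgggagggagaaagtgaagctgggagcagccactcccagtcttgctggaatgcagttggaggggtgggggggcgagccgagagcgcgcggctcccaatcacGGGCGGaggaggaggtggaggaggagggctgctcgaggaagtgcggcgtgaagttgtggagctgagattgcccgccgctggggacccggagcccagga

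Both strands of the 250 bases were searched for a STAT motif (TTCNNNGAA), an AP-1 motif (TGANTCA), a cAMP response element (TGACGTCA), an amino acid response motif (TGATGNAA), the NF-kappaB motif, a TATA box (TATAAA) and a GC box (GGGCGG). Areg held the cAMP response element from 91 to 84 bases before the start, a GC box from 82 to 77 and a TATA box from 61 to 56. The cAMP response element occurs in 1.59% of all 33469 RefSeq promoters of that length, the TATA box in 12.9% and the GC box in 30.5%. Tgfa held 2 matches to the NF-kappaB motif, from 117 to 108 and from 55 to 46 bases before the start, and 1 GC box. That NF-kappaB motif is found in 6.33% of all promoters, and Btc also held a match. The promoter of Hbegf, the gene with the largest difference of the set, held 0 matches to the 7 motifs. In Erbb2 the GC box, from 98 to 93 bases before the start, was the only match. Promoters were found for 7 of the 10 genes, not for Ereg, Nrg1 and Erbb3. Of the 7 promoters, 0 held the STAT motif (7.67% of all promoters), 0 the AP-1 motif (6.34%) and 0 the amino acid response motif (3.4%). The matches overlap no other match and are descriptions of letters, not of binding.

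Hbegf, which encodes the heparin-binding EGF-like ligand, had the highest level of the 10 genes in both groups. It measured 81.8 and 84.8 FPKM in the controls and 239 and 233 FPKM with IL-22. The groups lie far apart relative to the gap between libraries of a group. Hbegf rose 2.83-fold, from 83.3 ± 2.11 to 236 ± 4.22 FPKM (mean ± SD, n = 2), a difference of 1.49 ± 0.06 on the log2(FPKM + 1) scale (standard error, limma adjusted p = 2.96e-07).

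Tgfa, the gene of transforming growth factor alpha, an EGFR ligand, came second in level in both groups. Control libraries gave 23.0 and 23.5 FPKM and IL-22 libraries 63.0 and 62.5 FPKM. Both IL-22 libraries were high and nearly equal. The 2.70-fold rise of Tgfa corresponds to a difference of 1.39 ± 0.07 on the log2(FPKM + 1) scale (limma adjusted p = 8.56e-07). Hbegf and Tgfa were the 2 tested genes of the set that were higher by 1 log2 or more with no overlap of the groups, as were 4.68% of all tested rows.

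Areg, the gene of amphiregulin, another EGFR ligand, measured 8.71 and 8.06 FPKM in the controls and 17.4 and 16.7 FPKM with IL-22. Libraries of a group lay within 1 FPKM of each other and the groups did not overlap. Areg rose 2.03-fold (0.94 ± 0.09 log2, limma adjusted p = 3.92e-05).

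Ereg, which encodes epiregulin, had control values of 9.71 and 9.60 FPKM, and its IL-22 values were 17.5 and 13.0 FPKM. Both IL-22 libraries were above both controls, but the first was well above the second. The rise of Ereg was 1.58-fold (0.59 ± 0.13 log2, limma adjusted p = 0.00395). Without control library 1 or control library 2 the call of Ereg was lost (limma adjusted p = 0.0618 and 0.0648), and without IL-22 library 1 its difference was 0.39 log2, with the call kept.

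Btc, the gene of betacellulin, was the lowest of the 6 ligand genes and was not tested. Its 4 values were 0.283 and 0.441 FPKM in the controls and 1.58 and 0.262 FPKM with IL-22. Only IL-22 library 1 was high, and the other IL-22 library was below both controls. Multiplied by relative depth and divided by the value of control library 1, the 4 values of Btc lay close to the whole steps 1, 2, 6 and 1, with 6.04 for the high library. With no filter on low values Btc did not pass (limma adjusted p = 0.427 over 12482 rows).

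Areg, Ereg and Btc sit side by side among the protein-coding genes of rat chromosome 14. Their order in the RefSeq gene table is Btc, Areg, Ereg and Epgn. The next protein-coding gene beyond Btc is Parm1, which encodes a mucin-like membrane protein. Parm1 rose from 11.4 ± 0.534 to 26.5 ± 1.37 FPKM (1.14 ± 0.09 log2, limma adjusted p = 8.88e-06). Mthfd2l, an enzyme gene of mitochondrial folate metabolism, is the next protein-coding gene beyond Epgn. It measured 2.44 and 3.33 FPKM in the controls and 3.32 and 3.21 FPKM with IL-22. It did not pass the test (limma adjusted p = 0.433). Parm1 and Mthfd2l were named for their position, outside the naming rule.

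Nrg1, the neuregulin-1 gene, was low in both groups, at 1.59 and 1.53 FPKM in the controls and 2.89 and 3.54 FPKM with IL-22. Both IL-22 values exceeded both control values. Nrg1 rose 2.06-fold (0.71 ± 0.15 log2, limma adjusted p = 0.00288). The size of its log2 difference moved with the constant added, from 0.99 with a pseudocount of 0.1 to 0.32 with a pseudocount of 5, and the call held at both.

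Of 5 further ligand genes of the family, Egf, Nrg2 and Nrg4 stayed under 1 FPKM throughout, too low to be tested, and Epgn and Nrg3 are not analysed here. Egf itself was at 0.277 and 0.280 FPKM in the controls and 0.332 and 0.408 FPKM with IL-22. Nrg2, a neuregulin gene, was at 0.553 and 0.795 FPKM in the controls and 0.706 and 0.666 FPKM with IL-22. Nrg4 was listed at 0 in all 4 libraries.

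Egfr, the gene of the receptor for all EGF-type ligands described here, was listed at 0 in all 4 libraries. A row listed at 0 throughout is not rare in the table, where 29.8% of rows are so listed. A value of exactly 0 may also stand for an estimate that failed, and which of these holds for Egfr was not tested. Of 73 ribosomal protein genes, 0 were listed at 0 in any library, which does not settle it for Egfr. Erbb4 was listed at 0 in 3 libraries and at 0.0293 FPKM in IL-22 library 1.

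Erbb2 was the highest of the 4 receptor genes as listed, with Egfr taken at 0. It measured 15.1 and 15.3 FPKM in the controls and 15.9 and 15.4 FPKM with IL-22. The IL-22 values were marginally above the controls. Rows whose groups did not overlap in the higher direction, by any margin, made up 38.4% of tested rows. The difference of Erbb2 was 0.04 log2, with a 95% interval from -0.15 to 0.23 (limma adjusted p = 0.698). That interval lies below the intervals of Hbegf (1.35 to 1.63), Tgfa (1.24 to 1.55), Areg (0.73 to 1.15), Nrg1 (0.38 to 1.05) and Ereg (0.30 to 0.89). The interval of Erbb2 overlaps that of Erbb3 (0.18 to 0.93). These differences between genes were not tested.

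Erbb3, which encodes the neuregulin receptor, measured 0.819 and 0.685 FPKM in the controls and 1.51 and 1.62 FPKM with IL-22. The groups did not overlap, and both were near the minimum for testing. Erbb3 was higher by 0.55 ± 0.17 on the log2(FPKM + 1) scale (limma adjusted p = 0.0181). The call of Erbb3 was lost with quantile normalization (0.27 log2, limma adjusted p = 0.197) and when control library 2 (limma adjusted p = 0.0537), the first IL-22 library (limma adjusted p = 0.0598) or the second (limma adjusted p = 0.0917) was left out. Its size also followed the pseudocount, at 0.97 log2 with 0.1 and 0.19 log2 with 5, with the call kept.

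**Figure D2:**
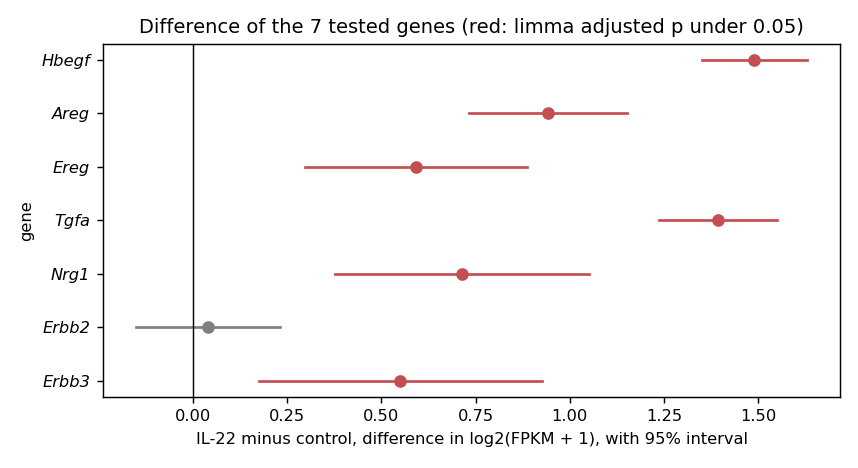
Difference between IL-22 and control for the 7 tested genes, on the log2(FPKM + 1) scale with the 95% interval from limma; genes past the threshold are red. Hbegf (1.49) and Tgfa (1.39) lie farthest from 0 and the interval of Erbb2 spans 0.

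Ratios between genes of the same library were set side by side. Hbegf stood at 5.43 and 5.54 times the Erbb2 level in control libraries and at 15.0 and 15.1 times after IL-22. For Tgfa the ratios to Erbb2 were 1.53 and 1.54 in control libraries and 3.97 and 4.05 after IL-22. The 5 EGF-type ligand genes together (Hbegf, Areg, Ereg, Tgfa and Btc) summed to 124 and 126 FPKM in the controls and to 338 and 325 FPKM with IL-22. Hbegf made up 66.2% and 67.1% of that sum in the controls and 70.6% and 71.6% after IL-22, and Tgfa 18.6% to 19.2% in all 4 libraries. Erbb2 supplied between 90.5% and 95.7% of the summed FPKM of the 4 receptor genes, a share that counts Egfr at its listed 0. The Erbb2 level was 18.4 and 22.3 times that of Erbb3 in the controls and 10.5 and 9.53 times with IL-22. For neuregulin-1 and its receptor, the ratio of Nrg1 to Erbb3 was 1.94 and 2.24 in control libraries and 1.91 and 2.18 after IL-22, so the groups overlapped. These sums and ratios are descriptions with no test.

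The order of levels in the controls ran Hbegf, Tgfa, Erbb2, Ereg, Areg, Nrg1, Erbb3 and Btc, followed by Egfr and Erbb4 at 0. No neighbours overlapped in their 2 libraries except the pair at 0. With IL-22 the order ran Hbegf, Tgfa, Areg, Erbb2, Ereg, Nrg1, Erbb3, Btc, Erbb4 and Egfr. There Erbb2 and Ereg overlapped, as did Erbb3 and Btc and the pair Erbb4 and Egfr. Areg was below Erbb2 in both controls and above it in both IL-22 libraries.

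Over the 4 libraries, the tested genes closest to Hbegf in pattern were Sesn2, Nxph4 and Rab15. Likeness was the Euclidean distance between log2(FPKM + 1) values centred on each gene's mean, which came to 0.036, 0.037 and 0.046. Sesn2, a stress-response gene, went from 60.5 to 169 FPKM. Nxph4, a neurexophilin gene, went from 0.288 to 2.61 FPKM, reaching the minimum for testing only through its IL-22 libraries, and Rab15, a gene of membrane traffic, from 1.11 to 4.80 FPKM. With 4 libraries in 2 groups, this distance mostly measures the difference between the groups. The values of Nxph4 and Rab15 shrank to 0.53 and 0.68 log2 with a pseudocount of 5, against 1.45 for Hbegf.

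Among genes that govern ligand release, 4 of 8 tested were higher and 1 lower, with a median of 0.21 log2. These and the list counts in the next paragraphs stand beside 27.6% of all tested rows called higher and 30.8% called lower, and a median of -0.022. Rhbdf2 encodes iRhom2, a partner that brings the sheddase ADAM17 to the cell surface. It measured 9.01 and 10.9 FPKM in the controls and 23.5 and 24.5 FPKM with IL-22 (1.20 ± 0.10 log2, limma adjusted p = 1.83e-05). Rhbdf1, which encodes the related iRhom1, moved the other way, from 22.9 and 24.1 FPKM to 15.6 and 17.7 FPKM (-0.47 log2, limma adjusted p = 0.00182). In the controls Rhbdf1 was the higher of the pair, and with IL-22 Rhbdf2 was. The metalloprotease genes Adam15 (0.52 log2) and Adam9 (0.39 log2) rose. Adam17 itself, named for its role in ligand release, measured 16.4 and 15.6 FPKM in the controls and 15.0 and 14.1 FPKM with IL-22 and did not pass (-0.13 log2, limma adjusted p = 0.232). Timp3, which encodes an inhibitor of ADAM17, and Rhbdl2 were listed at 0 in every library.

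Genes that restrain ERBB receptors or send them to degradation gave 7 higher and 2 lower of 21 tested, with a median of 0.10 log2 (27.6% and 30.8% of all tested rows). Errfi1 encodes a feedback inhibitor, also called MIG6, that binds the kinase domain of EGFR. It measured 95.4 and 97.6 FPKM in the controls and 241 and 243 FPKM with IL-22, a 2.51-fold rise (1.32 ± 0.06 log2, limma adjusted p = 5.02e-07). Cblb, a ubiquitin ligase gene of the CBL family, rose from 7.47 ± 0.258 to 16.4 ± 0.566 FPKM (1.03 log2). Stam, which sorts ubiquitin-tagged receptors at endosomes, rose from 18.0 ± 1.61 to 33.5 ± 1.55 FPKM (0.87 log2). Sh3kbp1, the gene of a CBL-binding adaptor, was higher by 0.67 log2 (0.618 and 1.58 FPKM), a call lost with quantile normalization (limma adjusted p = 0.0896), and it too reached the minimum only through the IL-22 libraries. Stub1 and Socs4 were the 2 lower genes, named to complete that count, which was 4 without control library 1.

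**Figure D3:**
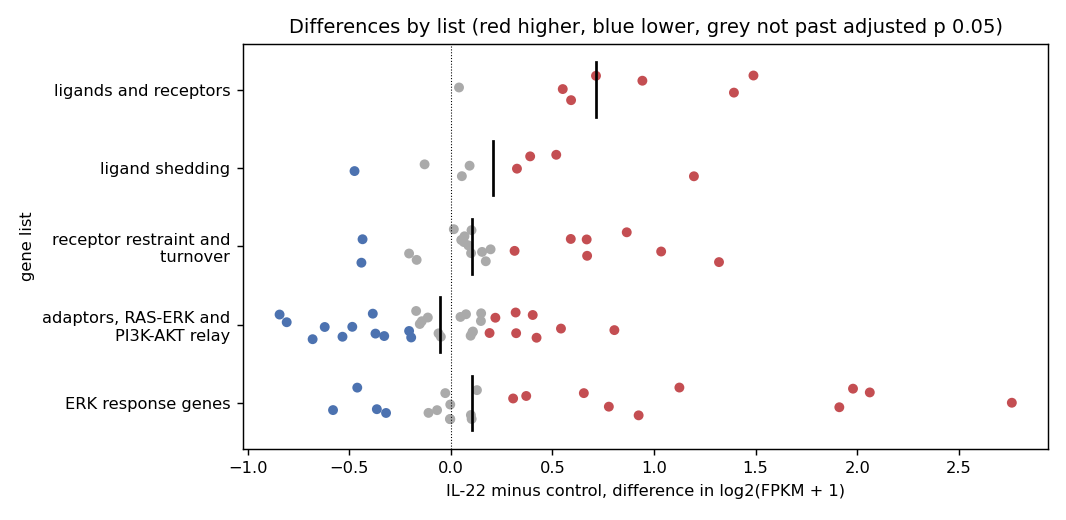
Difference between IL-22 and control on the log2(FPKM + 1) scale for each tested gene of the ligand and receptor set and of 4 pathway lists, with a black bar at each median; red genes were higher, blue lower and grey not past adjusted p 0.05. The relay genes spread to both sides with a median of -0.055, while the ligand and receptor set has 0 genes below 0.

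The adaptors and the RAS-ERK and PI3K-AKT relay genes moved both ways, 8 higher and 11 lower of 32 tested, with a median of -0.055 log2. Both shares are near those of all tested rows, 27.6% and 30.8%. Akt1, the gene of a kinase downstream of PI3K, measured 135 and 131 FPKM in the controls and 72.3 and 74.8 FPKM with IL-22 (-0.84 ± 0.06 log2, limma adjusted p = 8.19e-06). The adaptor gene Nck1 fell from 12.4 ± 0.386 to 6.71 ± 1.20 FPKM (-0.81 log2). Gab2, a docking protein gene, rose from 5.69 ± 0.301 to 10.7 ± 1.01 FPKM (0.80 log2). Each of these counts fell when any library was left out, as did the counts of all tested rows. Whether they depend on a particular library was not tested. Higher relay genes numbered 5, 4 and 5 without control library 1, IL-22 library 1 and IL-22 library 2, and lower ones 7 without control library 1 and 6 without IL-22 library 2.

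Genes that respond to ERK activity gave 10 higher and 4 lower of 23 tested, with a median of 0.10 log2, where 27.6% and 30.8% of all tested rows were so called. Ier3, an immediate-early gene, rose from 108 ± 5.88 to 737 ± 23.7 FPKM (2.76 log2). The transcription factor genes Egr2 (2.06 log2) and Egr1 (1.98 log2) and the ERK phosphatase gene Dusp5 (1.91 log2) also rose. Egr2 was at 0.440 and 0.480 FPKM in the controls and 4.63 and 5.60 FPKM with IL-22, so it reached the minimum for testing only through the IL-22 libraries. The 4 lower genes, named to complete the count, were Ccnd1 (-0.58 log2), Spred2 (-0.46 log2), Hmga2 (-0.36 log2) and Spred1 (-0.32 log2). The call of Spred1 was lost under 5 of 14 alternative settings. The other 9 tested genes, Dusp4, Spry2, Spry4, Fosl1, Phlda1, Etv1, Etv4, Etv5 and Myc, also named to complete the count, did not pass.

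**Figure D4:**
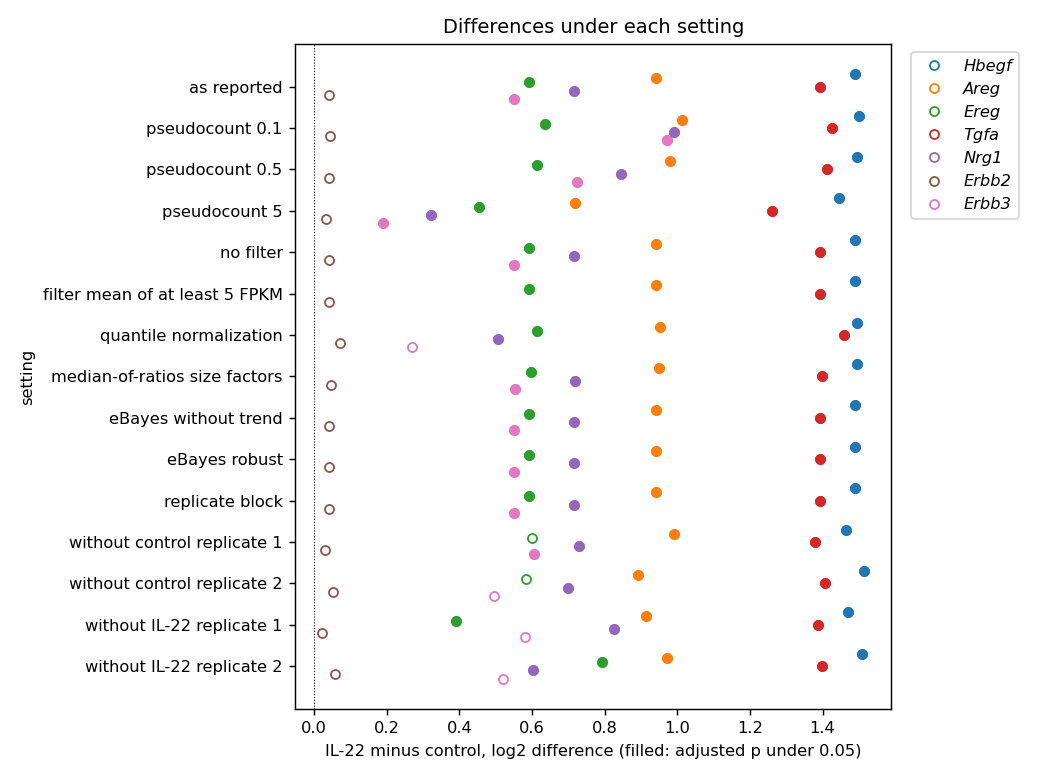
Log2 difference between IL-22 and control for the 7 tested genes under each processing setting, with filled points where the limma adjusted p was under 0.05. Hbegf, Tgfa and Areg stay filled under all settings drawn, while Ereg and Erbb3 lose their call under 2 and 4 of them and Erbb2 is open throughout.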

How the data were processed

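The authors deposited FPKM for genes with each library in its own column. TopHat2, Cuffdiff and the build rn5 are named, without versions or roles, per the submitters' processing notes. Annotation, filters, strand setting and scaling were not given in the sources used here, so overlapping genes cannot be told apart. A deposited lncRNA table was not used. FPKM are not counts, so the test was limma 3.58.1 (R 4.3.3) on log2(FPKM + 1), for the 9485 rows averaging 1 FPKM or more, two-sided, with a mean-variance trend, no covariates and Benjamini-Hochberg adjustment. This scale understates changes of low genes. With 2 libraries against 2 an exact permutation test cannot go below 0.333. Relative depth was the commonest ratio between libraries of rows under 0.15 FPKM. The script was tested on simulated data. Settings were varied in the pseudocount, filter, scaling (quantile normalization or size factors), eBayes options and replicate block, and each library was left out in turn, which assumes that the library left in its group varies as the other group does.

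The 10 genes and the lists (142 genes, 133 with a row, 1 of them by a synonym) were chosen with earlier results of these data known. Named genes were all 10, up to 4 past the threshold per pathway list by absolute difference, lists of 5 or fewer whole, and the 3 genes closest to the member with the largest difference; 1 gene taken by this rule is not reported here. RefSeq tables (GRCr8) gave names, gene order and promoters. Figures were drawn with Python 3.11.15, pandas 2.3.3 and matplotlib 3.10.9.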

Additional observations from a re-analysis of the deposited data

How the results depend on the processing

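Over the 14 alternatives, the counts of all genes stayed within 1.5 times of those reported, from 2101 to 2755 higher and from 2377 to 3070 lower. Of the 10 ligand and receptor genes, 4 to 6 were called higher and 0 lower under every alternative, with 4 when the minimum was a mean of 5 FPKM, which removes Nrg1 and Erbb3, and 5 with quantile normalization. Leaving out 1 library at a time gave 4 to 5 higher. Hbegf, Tgfa and Areg kept their call under all 14 (limma adjusted p up to 0.00114, 0.00135 and 0.00396), and Nrg1 under the 13 in which it was tested (up to 0.0264). Ereg lost its call under 2 of 14 and Erbb3 under 4 of 13, as given with those genes; the cause was not tested. The genes lower in the restraint list numbered 4 without control library 1, against 2. Egr2 ranged from 0.89 to 3.21 log2 with the pseudocount. Of 44 tested genes recomputed under the alternatives, 1 changed direction, Mthfd2l, which did not pass the test, with -0.014 log2 under quantile normalization and -0.021 to 0.31 log2 with 1 library left out. Among the marker genes, Thy1 lost its call under 6 of 14 and Col1a2 under 5. Scaling moved the median of all rows by less than 0.1 log2. With the replicate block 6 of the 10 genes were higher and 0 lower, and 2755 and 3070 of all rows. The replicate numbers pair no libraries in the labels, and deviations of same-numbered libraries correlated at -0.0020. Depth limits Btc, Erbb3, Erbb4 and Nrg1 most, since they lie near or under 1 FPKM or a few FPKM, and the files give no counts from which an interval could be made.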
